A study of Mus musculus with 6 samples.

Results

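Bone morphogenetic protein (BMP) ligands and the inhibitor of DNA binding (ID) genes were followed in mouse vestibular epithelium after exposure to 3,3'-iminodipropionitrile (IDPN), a nitrile that damages sensory hair cells (HCs). The 10 genes were 5 ligands (Bmp2, Bmp4, Bmp5, Bmp6 and Bmp7), the 4 ID genes (Id1, Id2, Id3 and Id4) and the inhibitory SMAD Smad6, out of 52636 genes in the table. They were picked by symbol and selected on the Control and IDPN counts of these same 6 libraries, since the differences between the groups were already known. Their levels and fold changes are therefore given as a description with SE and without a test. Only other genes of the pathway are tested, in lists that were also chosen with earlier results of these data known.

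BMP ligands are secreted dimers that bring together type I and type II serine/threonine kinase receptors. The activated type I receptor phosphorylates SMAD1, SMAD5 and SMAD9, which enter the nucleus with SMAD4 and turn on the ID genes and the feedback inhibitor Smad6. ID proteins have a helix-loop-helix but no DNA-binding region, and hold E proteins and other basic helix-loop-helix (bHLH) factors away from DNA. In the developing inner ear Bmp4 marks the prospective cristae.

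All 6 animals were male 129S1/SvImJ mice, 2 to 4 months old according to the methods of the study, with no transgene named. The 3 IDPN animals drank water with 30 mM IDPN for 8 weeks and the 3 Control animals drank water without it. Each library held RNA of 1 animal, pooled from 2 utricles and 6 cristae and copied by a SMART-seq2 protocol from the poly(A) end. The labels give 1 batch. Sample titles of Control animals begin with a code absent from those of IDPN animals, so treatment and whatever that code stands for cannot be told apart.

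The libraries held between 40474847 and 43566332 estimated counts, and levels below are normalized counts (estimated counts divided by a size factor for each library). All 19 HC markers and all 6 supporting cell markers were detected. The summed HC markers lay at 57682 to 62332 normalized counts in Control and 39559 to 42019 in IDPN, the supporting cell markers at 113571 to 130083 and 84069 to 97165, and the neuronal markers at 4314 to 4421 and 2708 to 3081. Single markers did not all follow these sums. None of the 6 supporting cell markers was called. Slc1a3 and Otog held most of their sum, with Control means of 61808 and 50975 normalized counts against 119730 for all 6. Both fell without overlap of the groups, by -0.39 and -0.50 on the log2 scale. The groups overlapped for Sox2 (-0.42), Tectb (-0.18), Cyp26b1 (0.53) and Lfng, so the separated sum mainly reflects Slc1a3 and Otog. Lfng was at 0.66 on the log2 scale through IDPN 2 alone, with 209, 607 and 192 normalized counts in IDPN 1, 2 and 3 against 180 to 260 in Control. Of the 5 neuronal markers 2, Nefl and Nefm, were called lower and Scn9a higher (3.62). Nefl and Nefm held most of the neuronal sum, with Control means of 3085 and 1270 normalized counts against 4374 for all 5. Prph was not called but was at 1.51, counted 4, 11 and 23 times in Control and 56, 30 and 36 times in IDPN. Nefh, with at most 11 counts in any library, was at -1.42. Scn9a was scarce, counted 1, 3 and 1 times in Control and 28, 19 and 26 times in IDPN. Each of these 3 sums, and the melanocyte sum, which was higher in IDPN, gave p = 0.10 in an exact two-sided permutation test (adjusted p = 0.30 over 12 lists), the smallest that 3 against 3 libraries can give. Under total-count scaling the HC sums (47540 to 64410 in Control, 40598 to 48945 in IDPN) and the supporting cell sums overlapped, each with exact permutation p = 0.20. The other 8 lists gave exact permutation p-values of 0.20 to 1.0, although 4 of 5 erythroid markers were called higher. The library IDPN 2 stood apart: its 10 immediate early genes summed to 477638 normalized counts, against 4965 to 12420 in the other 5 libraries. Values without it are given below for some of the genes and sums that it moved. Fold changes without it are not given for Skil, Lfng or Tgfb3, which were also highest in IDPN 2.

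Bmp2 was the ligand with the largest fold change of the 5. Its gene lies at chr2:133552159-133562885 on the plus strand of GRCm38 and encodes a ligand used in bone, heart and ear development. Bmp2 stood at 2511, 2143 and 1741 normalized counts in Control 1, 2 and 3, and at 591, 546 and 366 in IDPN 1, 2 and 3. The groups did not overlap, and the lowest Control library held more Bmp2 than any IDPN library. The mean fell from 2132 ± 385 (SD, n = 3) to 501 ± 119 (SD, n = 3) normalized counts, a log2-Fold_Change of -2.09 (SE 0.22), or 4.25-fold lower. Leaving out any 1 library gave log2 values between -2.22 and -1.91.

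The HC markers differed by -0.56 on the log2 scale as a sum, with 8 of the 19 called lower and none called higher, and single genes between -1.21 and 0.015. Relative to 1000 normalized counts of HC markers, Bmp2 gave 43.5, 34.4 and 29.6 in Control 1, 2 and 3 and 14.8, 13.0 and 9.25 in IDPN 1, 2 and 3. Bmp2 was thus also lower in every IDPN library on this scale. In bulk tissue, fewer cells of a type and less RNA per cell cannot be told apart, and the part of the HC markers in the Bmp2 difference was not tested.

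Bmp7, a ligand of epithelia and of the developing eye and kidney, was the most abundant ligand. It gave 3978, 3997 and 3603 normalized counts in Control and 2858, 3620 and 2904 in IDPN. IDPN 2 lay just above Control 3, so the groups overlapped. The Control mean was 3859 ± 222 and the IDPN mean 3127 ± 427 (SD, n = 3). The log2-Fold_Change was -0.30 (SE 0.16), -0.42 without IDPN 2, and -0.058 when libraries were scaled to their total counts. The gene lies at chr2:172868012-172940321 on the minus strand.

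The 3 remaining ligands were low and their groups overlapped. Bmp4, the marker of prospective cristae, gave 88.5, 90.0 and 118 normalized counts in Control and 116, 34.1 and 123 in IDPN. The low IDPN 2 library widened its spread, and its log2-Fold_Change was -0.12 (SE 0.43), or 0.27 without that library. Bmp6, best known for control of hepcidin and iron balance, gave 211, 199 and 254 in Control and 197, 201 and 213 in IDPN, a log2-Fold_Change of -0.12 (SE 0.23). Exons of Bmp6 and of Txndc5, on the other strand, overlap by 224 bp, and the protocol does not mark strand, so reads from that stretch cannot be told apart. Txndc5 stood at 3614 normalized counts in Control and 4387 in IDPN. Bmp5, a ligand of cartilage and ear shape, was counted 33, 2 and 32 times in Control and 28, 10 and 19 times in IDPN. Its log2-Fold_Change of -0.47 had an SE of 0.80, and the Control libraries alone spanned the whole IDPN range.

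**Figure D1:**
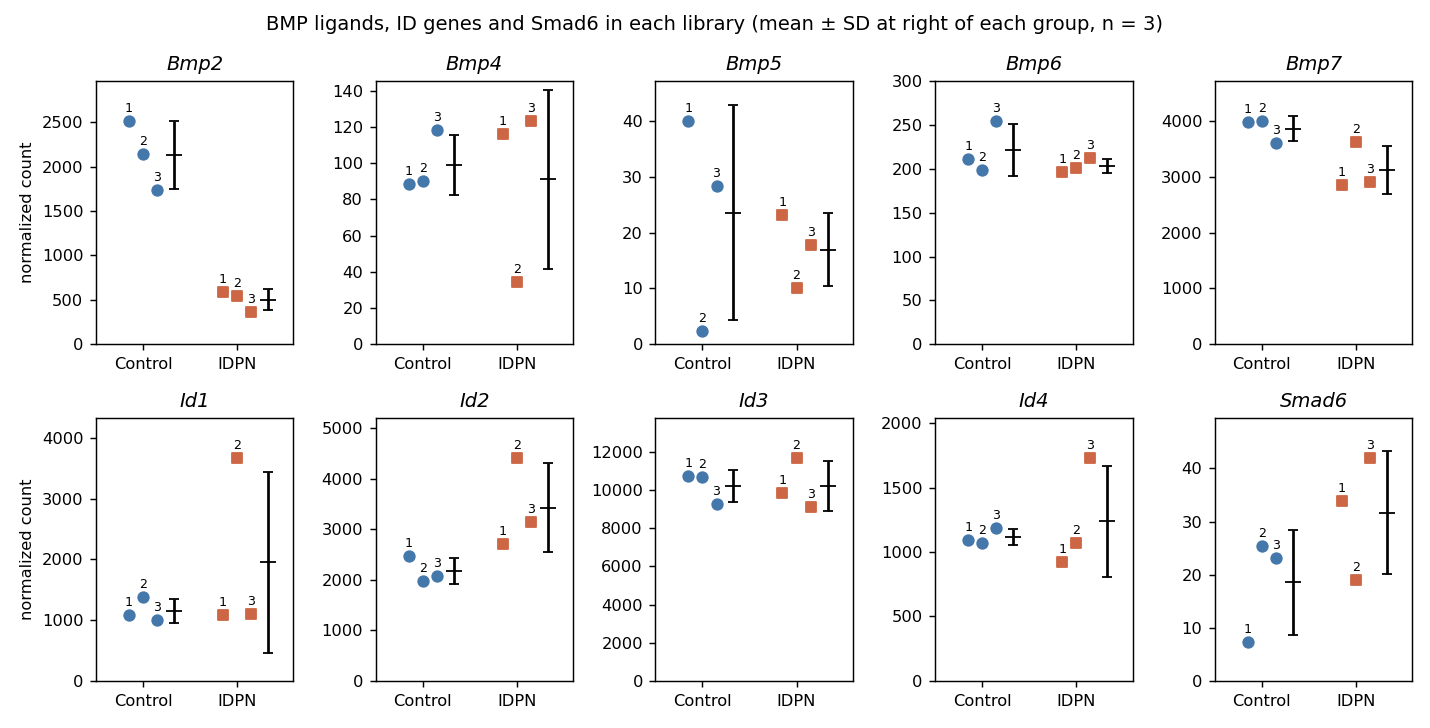
Normalized counts of the 10 genes in each of the 6 libraries, on linear axes from 0 with a scale for each gene. Numbered circles are Control libraries and numbered squares IDPN libraries, with mean ± SD (n = 3) beside each group. Bmp2 is the ligand whose groups do not overlap (1741 to 2511 against 366 to 591), Id2 is the ID gene whose groups do not overlap, and the high Id1 point of 3671 is IDPN 2.

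The makeup of the ligand pool differed between the groups when levels were set per kilobase of the longest transcript, the scale on which genes of different length can be compared. The 5 ligands summed to 1767 ± 149 normalized counts per kilobase in the Control libraries and 1098 ± 103 in the IDPN libraries (SD, n = 3 each). Without Bmp2 the sums were 1167 ± 43.4 and 957 ± 90.6. Bmp2 took 37.1%, 33.7% and 30.5% of the ligand sum in Control 1, 2 and 3 and 15.7%, 12.6% and 10.1% in IDPN 1, 2 and 3. Bmp7 took 59.6% ± 2.29 of it in the Control libraries and 77.4% ± 3.94 in the IDPN libraries (SD, n = 3). Bmp4, Bmp5 and Bmp6 each had a mean share between 0.349% and 5.19% in either group. Since Bmp2 was selected on its difference, these shares follow in part from that choice.

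**Figure D2:**
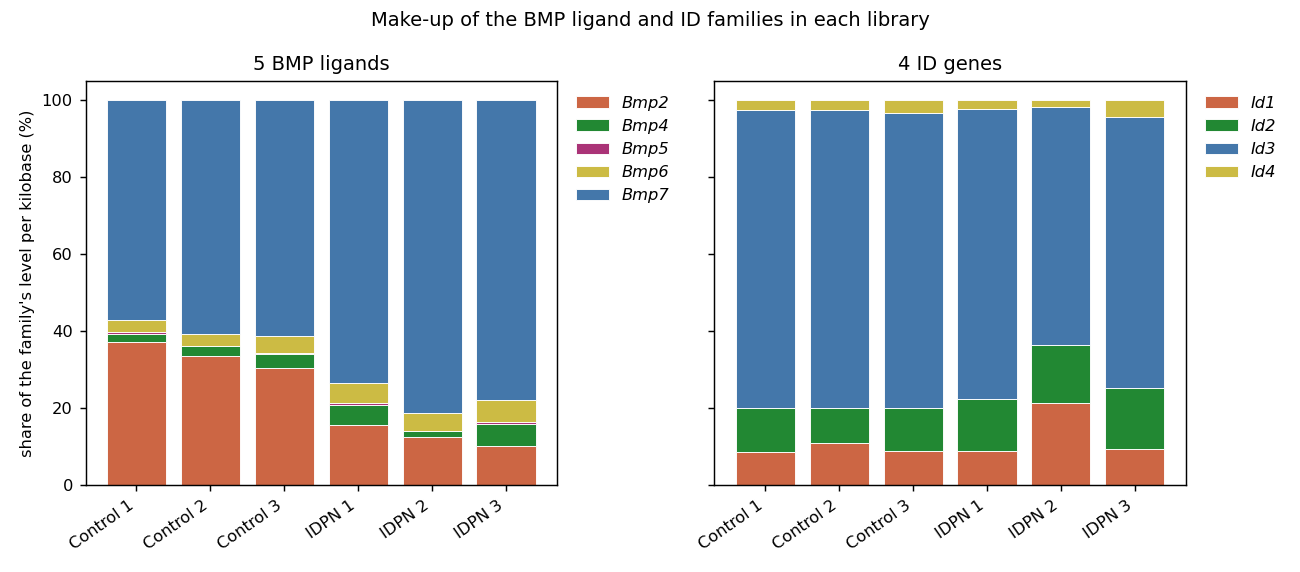
Percent of the summed normalized counts per kilobase taken by each of the 5 BMP ligands (one panel) and the 4 ID genes (the other panel), with 1 stacked bar for each of the 6 libraries. Bmp2 takes 30.5% to 37.1% of the ligand sum in Control and 10.1% to 15.7% in IDPN, while Id3 takes most of the ID sum in every library.

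Id2 was the ID gene with the clearest separation of groups, with a mean 1.58-fold higher in IDPN. Its protein restrains bHLH factors in neural, immune and other lineages, and the gene lies at chr12:25093799-25097140 on the minus strand. Id2 gave 2466, 1969 and 2081 normalized counts in Control and 2715, 4418 and 3155 in IDPN. The groups did not overlap, and IDPN 2 was the highest library. The Control mean was 2172 ± 260 and the IDPN mean 3429 ± 884 (SD, n = 3), and the log2-Fold_Change was 0.66 (SE 0.20). Without IDPN 2 it was 0.43, under the 1.5-fold threshold used for calls.

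Id1, an early and direct BMP target in many cell types, lay at 1089, 1376 and 995 normalized counts in Control and at 1078, 3671 and 1105 in IDPN. A single library held the high value: IDPN 2, the one with the high immediate early genes. The log2-Fold_Change was 0.76 (SE 0.60) with it and -0.079 without it. Whether the immediate early genes bear on Id1 was not tested.

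Id3 was by far the most abundant of the ID genes, and its protein acts on E proteins much as Id1 does. It gave 10720, 10675 and 9267 normalized counts in Control and 9862, 11691 and 9130 in IDPN. The means were close, 10221 ± 826 and 10228 ± 1319 (SD, n = 3 each), and the log2-Fold_Change was 0.0010 (SE 0.16). Id4, which can oppose other ID proteins and is used in neural and glial precursors, gave 1095, 1071 and 1188 in Control and 920, 1069 and 1731 in IDPN. The highest library was IDPN 3, and the log2-Fold_Change of 0.15 (SE 0.23) became -0.17 without it. Exons of Id4 overlap those of opposite-strand transcripts by 82 and 171 bp.

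The ID family summed to 10385 ± 789 normalized counts per kilobase in the Control libraries and 11749 ± 2672 in the IDPN libraries (SD, n = 3). The higher IDPN mean came from IDPN 2 at 14834, and without it the mean of the other 2 IDPN libraries was 10206, below Control. Id3 took 77.0% ± 0.392 of that sum in Control and 69.1% ± 6.85 in IDPN, and Id2 took 10.6% ± 1.22 and 14.8% ± 1.21. Without IDPN 2 the IDPN shares were 72.8% for Id3 and 14.6% for Id2. In each library the ratio of Id2 to Id3 was 0.149, 0.120 and 0.146 in Control and 0.179, 0.245 and 0.224 in IDPN. The ratio of levels was above the Control range in every IDPN library. Since Id2 was among the genes selected on this contrast and Id3 hardly differed, the ratio in part restates the Id2 difference.

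The promoters of Id2, Id3 and Id4 are shown because BMP-responsive ID promoters are known for GC-rich elements bound by SMAD1 and SMAD5 next to SMAD boxes. The sequences are the 250 bases before the RefSeq start on GRCm38.p6, 5′ to 3′ on the strand of the gene, at chr12:25096093-25096342 (minus), chr4:136143572-136143821 (plus) and chr13:48260866-48261115 (plus). RefSeq starts differ from the ends of the GENCODE gene spans used for the levels. The windows of Id2 and Id3 lie inside those spans (chr12:25093799-25097140 and chr4:136143497-136145755). For Id4 the RefSeq start, 48261116, lies before the GENCODE gene start, 48261228. Capitals mark GGCGCC and the SMAD box, GTCT or AGAC, on either strand.
Id2: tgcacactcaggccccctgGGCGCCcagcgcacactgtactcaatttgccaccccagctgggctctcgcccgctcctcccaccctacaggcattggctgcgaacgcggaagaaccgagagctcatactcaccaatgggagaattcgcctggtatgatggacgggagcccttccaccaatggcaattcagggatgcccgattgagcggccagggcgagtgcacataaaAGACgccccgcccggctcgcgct
Id3: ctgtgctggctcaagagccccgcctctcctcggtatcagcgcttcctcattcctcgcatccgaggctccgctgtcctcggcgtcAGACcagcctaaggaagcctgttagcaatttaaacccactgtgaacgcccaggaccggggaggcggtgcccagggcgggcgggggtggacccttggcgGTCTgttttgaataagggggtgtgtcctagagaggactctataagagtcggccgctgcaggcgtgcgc
Id4: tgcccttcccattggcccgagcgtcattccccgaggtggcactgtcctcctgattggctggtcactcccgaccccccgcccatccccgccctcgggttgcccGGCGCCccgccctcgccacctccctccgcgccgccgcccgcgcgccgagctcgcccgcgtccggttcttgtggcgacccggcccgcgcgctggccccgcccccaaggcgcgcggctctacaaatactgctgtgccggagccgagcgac

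In the window of Id2, GGCGCC lay from 231 to 226 bases before the start and a SMAD box from 23 to 20 bases before it. Id3 had SMAD boxes from 166 to 163 and from 68 to 65 bases before the start and no GGCGCC in these 250 bases. Id4 had GGCGCC from 148 to 143 bases before the start and no SMAD box. Over 32817 RefSeq promoters of the same length, 9.59% held GGCGCC and 82.9% held GTCT or AGAC, so the SMAD box is common by its length alone. The match is a description and not a binding site. Promoters were found for 7 of the 10 genes. The ones not shown (Bmp4, Bmp5, Bmp6 and Smad6) each held at least 1 SMAD box and no GGCGCC.

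Smad6, which blocks BMP receptor signalling in a negative feedback loop, was scarce. It was counted 6, 22 and 26 times in Control and 41, 19 and 45 times in IDPN. The groups overlapped through IDPN 2, and the log2-Fold_Change was 0.76 (SE 0.63), between 0.38 (without Control 1) and 1.03 (without Control 2) with any 1 library left out and 1.02 without IDPN 2.

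By normalized counts per kilobase in Control, the order from high to low was Id3 (7998 ± 647), Id2 (1103 ± 132), Bmp7 (1052 ± 60.5), Id1 (994 ± 171), Bmp2 (600 ± 108), Id4 (290 ± 16.0), Bmp6 (61.6 ± 8.17), Bmp4 (47.9 ± 8.13), Smad6 (6.26 ± 3.32) and Bmp5 (6.17 ± 5.06), each with SD and n = 3. Id2, Bmp7 and Id1 lay within each other's spread. Smad6 and Bmp5 lay within each other's spread too, and Bmp6 and Bmp4 had SDs that overlapped. In IDPN the level of Bmp2 was 141 ± 33.5 per kilobase, below Id4 at 322 ± 112 (SD, n = 3 each). With merged exon length in place of the longest transcript the order in Control began with Id3 (5707), Id1 (994), Bmp7 (960) and Id2 (891), and Bmp5 (5.86) lay above Smad6 (5.80). Among 16398 genes with a level, Id3 was at the 98.2 percentile in Control and Bmp5 at the 8.06 percentile.

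Of the 10 genes, Bmp2 met the call used over all genes (Padj under 0.05 and a fold change above 1.5) in the lower direction, which 3.42% of 17650 tested genes met, and Id2 met it in the higher direction, which 2.32% met. The groups of libraries failed to overlap for the same 2 genes, against 11.4% of genes with IDPN below Control and 11.1% with IDPN above. Since the genes were selected on this contrast, nothing is read from these counts. The median log2-Fold_Change was -0.059 over the 10 genes and 0.015 over all tested genes. Scaling to total counts raised the median log2-Fold_Change of the 16418 genes with at least 10 counts in 3 libraries by 0.26, and Bmp4 (0.16), Bmp6 (0.11) and Id3 (0.25) were then higher in IDPN by no more than this shift.

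**Figure D3:**
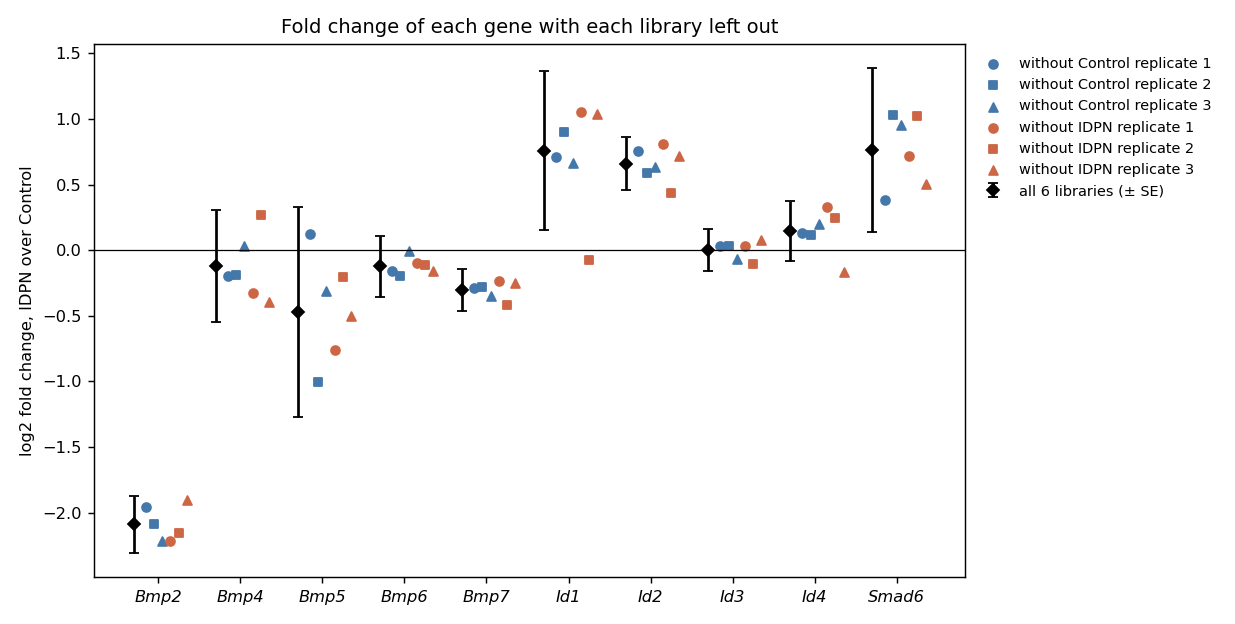
Log2-Fold_Change (IDPN over Control) of each of the 10 genes with all 6 libraries and with each library left out in turn. Bmp2 stays between -2.22 and -1.91, Id2 between 0.43 and 0.81, and Id1 spans -0.079 to 1.06.

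The genes most like Bmp2 were found by Pearson correlation of log2(normalized count + 1) over the 6 libraries, among 11196 genes. They were Ccdc65 (r = 0.998), Ptprq (r = 0.998), Pon2 (r = 0.997), Prss23 (r = 0.996) and Smoc1 (r = 0.994). Ptprq, a phosphatase of the HC stereocilia, stood at 22558 normalized counts in Control and 7730 in IDPN. The genes most like Id1 were Prrg4 (r = 0.996), Cldn4 (r = 0.993), Tnfrsf1a (r = 0.993), Eif4a1 (r = 0.992) and Vasn (r = 0.990). Each of them was highest in IDPN 2, with Cldn4, a tight junction claudin, at 13834 normalized counts there and 1331 to 2447 in the other libraries. The 6 points share the same groups, and these likenesses are descriptions.

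Outside the 10 genes, 71 genes of the BMP pathway in 6 lists by role were examined, of which 58 passed the filter on low counts and 6 had no counts in any library. The DESeq2 Wald test called 6 of the 58 downregulated (10.3%, against 3.42% of all genes) and 3 upregulated (5.17%, against 2.32%), and 49 did not pass. With libraries scaled to total counts the calls were 2 lower and 3 higher, and without IDPN 2 they were 8 lower and 3 higher. The median log2-Fold_Change of the 58 was 0.092. The 2 groups did not overlap for 13 genes with IDPN below (22.4%, against 11.4%) and 9 with IDPN above (15.5%, against 11.1%). The lists were drawn up with earlier results of these data known. Nothing is therefore read from these shares or from those of single lists below. The HC sum and the supporting cell sum given above, the latter mostly Slc1a3 and Otog, were lower in the same IDPN libraries. The part of these sums in the counts was not tested.

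None of the 7 tested other ligands was called by DESeq2, nor any of the 12 receptors and co-receptors. Bmp3, which can oppose other BMPs, had mean normalized counts of 437 ± 27.3 (Control) and 471 ± 71.7 (IDPN; SD, n = 3 each; log2-Fold_Change 0.11, Padj = 0.862, DESeq2). Gdf11, which signals mainly through SMAD2 and SMAD3, had a log2-Fold_Change of 0.41 (Padj = 0.400, DESeq2). Among receptors the log2-Fold_Change ran from -0.19 for Rgma to 0.75 for Rgmb, both co-receptors of the repulsive guidance family. Rgmb lay higher in every IDPN library than in any Control library, but the Control libraries were spread widely (251, 699 and 1005 normalized counts). With all 6 libraries it was not called (Padj = 0.538, DESeq2), and without Control 3 it was (1.21, Padj = 0.00658, DESeq2). The co-receptors with the most normalized counts were Tgfbr3 (log2-Fold_Change -0.084, Padj = 0.875, DESeq2) and Eng (0.094, Padj = 0.883).

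Of the secreted antagonists and modulators, the longest list, 4 of 19 tested were downregulated (21.1%, against 3.42% of all genes) and 1 upregulated (5.26%, against 2.32%), which was not tested against the other lists. Nbl1, a DAN family antagonist chosen after its values were seen, was not called with all 6 libraries, and its groups overlapped (log2-Fold_Change 0.36, Padj = 0.417, DESeq2). It was called higher when Control 2, its highest Control library, was left out (0.63, Padj = 0.0318, DESeq2). Smoc2, a secreted calcium-binding matrix protein, gave 5527, 6496 and 4225 normalized counts in Control and 1610, 1062 and 1457 in IDPN. The groups were far apart, with a log2-Fold_Change of -1.98 (SE 0.21, Padj = 1.63e-18, DESeq2). Its relative Smoc1, a BMP antagonist, fell from 3668 ± 295 to 2089 ± 173 (SD, n = 3 each; log2-Fold_Change -0.81, SE 0.15, Padj = 1.35e-05, DESeq2). Bmper, which binds BMPs outside the cell, fell from 193 ± 12.4 to 78.6 ± 16.2 (log2-Fold_Change -1.30, SE 0.28, Padj = 0.000215, DESeq2). Tll1, a tolloid-like protease that cuts chordin, fell from 106 ± 24.6 to 42.7 ± 14.5 (log2-Fold_Change -1.31, SE 0.39, Padj = 0.0177, DESeq2). The Tll1 call was lost in DESeq2 fits without Control 2 (Padj = 0.158), Control 3 (0.0829) or IDPN 3 (0.125), with log2-Fold_Change values of -1.21, -1.22 and -1.06. Under total-count scaling the calls of Tll1 (Padj = 0.135, DESeq2) and Smoc1 (0.122) were lost.

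Sostdc1, a secreted antagonist of BMP and Wnt ligands, was the upregulated gene of that list. It gave 951, 633 and 598 normalized counts in Control and 2473, 2561 and 3311 in IDPN. Every IDPN library exceeded every Control library, and the log2-Fold_Change was 1.94 (SE 0.21, Padj = 5.08e-17, DESeq2). Twsg1, a chordin partner with the most normalized counts of the list, stood at 10433 ± 828 and 11046 ± 1028 (SD, n = 3 each; Padj = 0.866, DESeq2). Kcp, which enhances BMP signalling, gave -0.53 (Padj = 0.0450, DESeq2), short of the fold threshold. Without IDPN 2 the log2-Fold_Change of Kcp was -0.67 (Padj = 0.00429, DESeq2) and passed it, as did Hey1 in the list of responsive genes (-0.73, Padj = 0.00550). These were 2 of 8 downregulated genes in that fit.

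**Figure D4:**
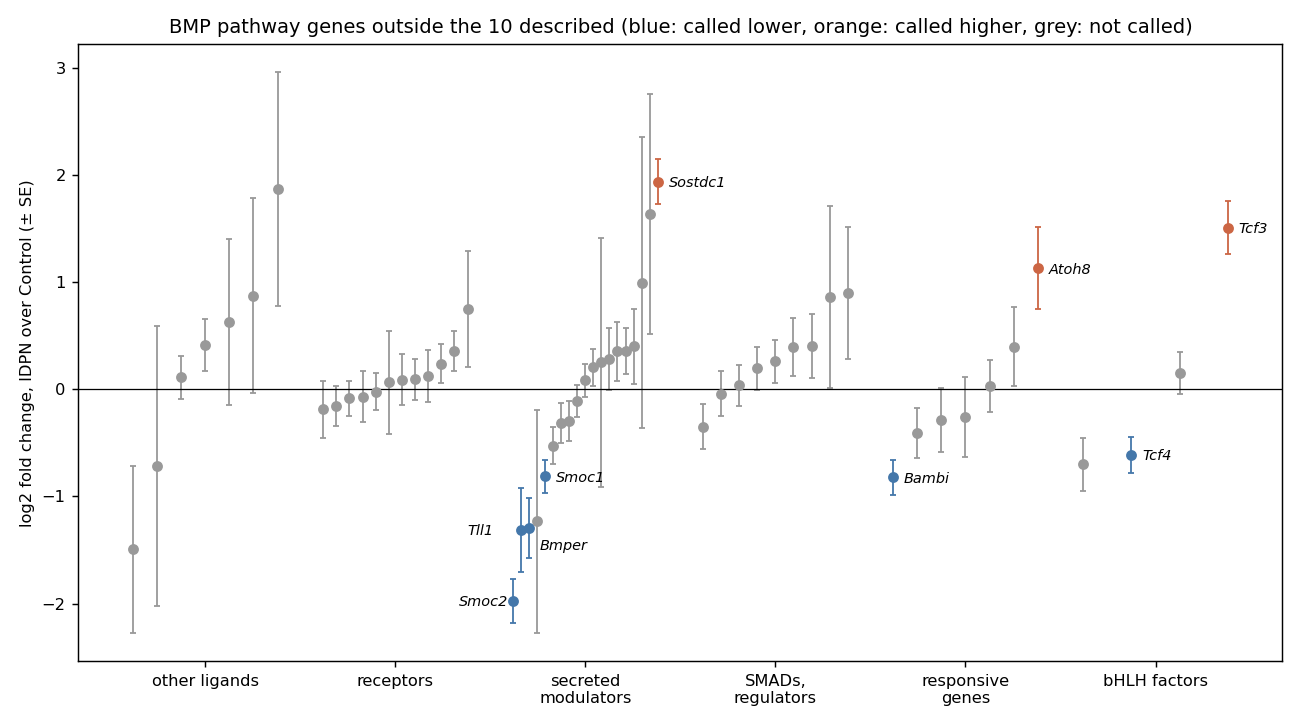
Log2-Fold_Change (IDPN over Control, with SE bars) of the 58 tested BMP pathway genes outside the 10 described, in 6 lists by role, with called genes in colour and named. Of the secreted modulators 4 are called lower and 1 higher, and the receptor points carry no call.

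None of the 9 SMADs and SMAD regulators was called with all libraries. Skil, a co-repressor chosen after its values were seen, stood at 170, 814 and 419 normalized counts in IDPN against 221 to 283 in Control. With all 6 libraries its log2-Fold_Change was 0.90 (Padj = 0.501, DESeq2). It was called without IDPN 1 (log2-Fold_Change 1.30, Padj = 0.00136, DESeq2), a fit that keeps its highest library, IDPN 2. No other fit called it, including the one without IDPN 2. Smad5, a BMP-activated SMAD, had a log2-Fold_Change of 0.26 (Padj = 0.569, DESeq2) and the co-repressor Ski 0.20 (Padj = 0.709). Of 7 other BMP-responsive genes, 1 fell and 1 rose (14.3% each, against 3.42% lower and 2.32% higher of all genes, a difference that was not tested). Bambi, a pseudoreceptor without a kinase domain, gave 1409, 1364 and 1540 normalized counts in Control and 790, 900 and 753 in IDPN. Its groups did not overlap, with a log2-Fold_Change of -0.82 (SE 0.16, Padj = 4.62e-05, DESeq2). Atoh8, a bHLH factor, rose from 65.9 ± 21.4 to 145 ± 59.2 (SD, n = 3 each; log2-Fold_Change 1.13, SE 0.38, Padj = 0.0497, DESeq2), a call that edgeR did not make (Padj = 0.150) and that DESeq2 lost without Control 1 (0.289), Control 2 (0.112), IDPN 1 (0.128) or IDPN 3 (0.425). The log2-Fold_Change in these 4 fits was 0.88, 1.25, 1.21 and 0.76. Under total-count scaling Bambi was at -0.59 (Padj = 0.120, DESeq2). Hey1, a Notch and BMP target, had a log2-Fold_Change of -0.41 (Padj = 0.382, DESeq2).

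The bHLH partners of ID proteins gave 1 gene in each direction of 4 tested. That was 25% each, against 3.42% lower and 2.32% higher of all genes, a difference that was not tested. Tcf3, the E protein E2A, rose from 187, 298 and 397 normalized counts in Control to 814, 846 and 857 in IDPN (log2-Fold_Change 1.51, SE 0.25, Padj = 1.60e-07, DESeq2). Tcf4, another E protein with the most normalized counts of the list, fell from 4318, 5121 and 3771 to 2683, 2966 and 2997 (log2-Fold_Change -0.61, SE 0.17, Padj = 0.00704, DESeq2). The Tcf4 call was lost without Control 2 (Padj = 0.0860, DESeq2) or IDPN 1 (0.0717) and under total-count scaling (0.326). Tcf12, the remaining E protein, had a log2-Fold_Change of 0.15 (Padj = 0.787, DESeq2). Atoh1, the bHLH factor that specifies HCs, chosen after its values were seen, was lower in every IDPN library than in any Control library but not called (log2-Fold_Change -0.70, Padj = 0.0703, DESeq2).

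For comparison, the TGF-beta and activin arm had 1 gene called lower and 1 called higher of 9 tested (11.1% each, against 3.42% lower and 2.32% higher of all genes). The called genes were Inhba, an activin subunit (log2-Fold_Change -0.63, Padj = 0.0480, DESeq2), and Tgfb3, a TGF-beta ligand (0.76, Padj = 0.00332). Tgfb3 lay at 1932, 1759 and 1976 normalized counts in Control and 2924, 4080 and 2567 in IDPN, where IDPN 2 was the highest library. Alternative fits are not given for this arm. The list's genes with the most normalized counts were Tgfb2, a ligand (-0.24, Padj = 0.519, DESeq2), and the receptor Tgfbr2 (-0.56, Padj = 0.0355), which was short of the fold threshold. The share of called genes was not compared between the arms by a test.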

How the data were processed

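Estimated counts (expected counts) were produced by the authors with RSEM 2.3.0 from paired reads aligned with STAR 2.5.3a to GRCm38 (versions per the submitters' processing notes), and were deposited as whole numbers without normalization or filter. RSEM divides reads shared between genes. SMART-seq2 carries no molecular identifiers, so PCR copies of a molecule cannot be told apart by them. The SD is the spread between the animals of a group. The SE is that of the log2-Fold_Change in the DESeq2 fit, whose dispersion for a gene also draws on other genes. The table was used as deposited with DESeq2 1.42.0 (R 4.3.3, Wald test, median-of-ratios size factors, no covariate, independent filtering on). A gene was called at a Benjamini-Hochberg Padj under 0.05 over all tested genes and a fold change above 1.5, thresholds named in the methods of the study. edgeR 4.0.16 (quasi-likelihood), scaling to total counts, a filter of 10 counts in 3 libraries, independent filtering off, no fold threshold and leaving out each library were alternatives, and merged exon length was the alternative for levels per kilobase. Gene lengths and positions came from GENCODE M21 on GRCm38, a later release than that of the authors. Promoters came from RefSeq on GRCm38.p6. The DESeq2 and edgeR scripts were tested on simulated data. Named were the 10 genes, in each list the called genes and the 2 with the highest mean normalized count, and the 5 genes most like Bmp2 and Id1 with a mean of at least 100 normalized counts. The genes and lists were chosen with earlier results of these data known. Rgma, Rgmb, Nbl1, Skil and Atoh1, and the single supporting cell and neuronal markers, were named after their values were seen.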

Additional observations from a re-analysis of the deposited data

How the results depend on the processing

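With libraries scaled to total counts, 2 BMP pathway genes were called lower instead of 6, and 3 higher as before. Bambi (log2-Fold_Change -0.59, Padj = 0.120, DESeq2), Smoc1 (-0.55, 0.122), Tcf4 (-0.35, 0.326) and Tll1 (Padj = 0.135) then missed the threshold. Leaving out 1 library gave 4 to 8 lower and 2 to 4 higher, and edgeR gave 4 lower and 2 higher. Smoc2, Sostdc1, Bmper and Tcf3 were called under each of these alternatives. edgeR did not call Tll1 (Padj = 0.0892), Tcf4 (0.0647) or Atoh8 (0.150), and Atoh8 was also lost with independent filtering off (Padj = 0.0718, DESeq2). The cause of these losses was not tested. Among the marker sums, total-count scaling shifted every list by the same amount, which turned the log2 difference of endothelium to 0.13 and left -0.30 for HC and -0.16 for supporting cells. Leaving out 1 library moved it between -0.35 and 0.071, the dark and transitional cell sum between -0.21 and 0.17, the pericyte sum between -0.14 and 0.13 and the immediate early sum between -0.027 and 3.27. Bmp2, Bmp7, Id2 and Smad6 had the same sign in each of 9 alternatives. No paired analysis was possible because the labels give no replicate numbers shared between the groups. Bmp5 and Smad6 had at most 45 counts in any library. The family values without IDPN 2 were added after seeing the data.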
